A study of Mus musculus with 6 samples.

Results

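The genes described here encode the transforming growth factor beta (TGF-beta) ligands Tgfb1, Tgfb2 and Tgfb3, their receptors Tgfbr1, Tgfbr2 and Tgfbr3, and the latent TGF-beta binding proteins Ltbp1, Ltbp2, Ltbp3 and Ltbp4. They were chosen by gene symbol, and all 10 were found among the 24413 gene rows of the deposited expression table. The RNA came from W-EGFP cells, a population of testicular interstitial cells of FLE-EGFP mouse fetuses at stage E16.5. The labels do not spell out either name; FLE is known as a fetal Leydig enhancer of the Nr5a1 gene, which drives the fluorescent reporter in this line. Samples of 10000 cells were exposed for 1 hour either to 0.5 µM SAG, an agonist of the Hedgehog signal transducer Smoothened, or to DMSO, its vehicle, and each group has 3 libraries. The duration is given as the labels state it. Several of the changes given below are large for an exposure of 1 hour, and whether the stated duration holds was not tested. Both groups carry the reporter, and the sources used here give neither the strain background nor whether fetuses were pooled. The column names of both groups hold the element "siCnt", which the labels do not explain. It is therefore not known whether all the cells had also received a control siRNA.

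TGF-beta ligands are secreted as dimers that stay folded inside their own propeptide and cannot bind a receptor in that latent form. Most are joined to a latent TGF-beta binding protein, a large secreted protein that anchors the complex to fibrillin and fibronectin fibres, and integrins or proteases later free the ligand. A free ligand binds the type II receptor Tgfbr2, which recruits and phosphorylates the type I receptor Tgfbr1, and Tgfbr1 then phosphorylates the transcription factors Smad2 and Smad3. In mesenchymal cells such as those of the gonadal interstitium the pathway is best known for its effects on extracellular matrix and on contractile genes.

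The values are CPM with per-library scaling factors inside (hereafter signal), as the authors deposited them, and ± gives the SD of the 3 libraries of a group (n = 3). Whole reads recovered from the signal numbered 18486396 to 25491259 per DMSO library and 7694479 to 8804335 per SAG library, so the SAG values rest on fewer reads. SAG replicate 3 stood apart: it lay away from SAG replicates 1 and 2 on the second principal component, which held 20.8% of the variance, and ribosomal RNA (Rn45s) took 1.67% of its reads, against at most 0.360% elsewhere. The Hedgehog target Gli1 checked the treatment, with signals of 0.704, 0.324 and 0.846 in DMSO replicates 1 to 3 and of 32.6, 46.3 and 30.8 in SAG replicates 1 to 3, and Ptch1 was also higher in every SAG library. Genes that mark interstitial progenitors (Pdgfra and Tcf21 among them) were detected in all libraries. The smooth muscle markers given below had a larger summed signal than these, and some Sertoli and endothelial markers were detected too. Of 8 germ cell markers 6 were under a signal of 1 in every library, as were 8 of 10 macrophage and all 6 erythroid markers.

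With SAG, the RNAs for 2 of the ligands, Tgfb2 and Tgfb3, fell, as did those for the signalling receptor Tgfbr1 and for Ltbp1 and Ltbp2. The RNAs for the ligand-binding receptor Tgfbr2, the co-receptor Tgfbr3 and the binding protein Ltbp4 rose. Thus 3 of the 10 genes were called higher and 5 lower (limma on log2(signal + 1), Benjamini-Hochberg adjusted p under 0.05), while Tgfb1 and Ltbp3 were not called. Over all 12550 tested genes, those with a mean signal of at least 1, 12.9% were called higher and 16.6% lower, or 29.6% in either direction. In 5 of the 10 genes, namely Tgfb2, Tgfb3, Tgfbr3, Ltbp2 and Ltbp4, the called change was at least 1 on the log2 scale, a size reached by 6.26% of tested genes. The groups did not overlap for 9 of the 10 genes, Tgfb1 being the exception, against 48.0% of tested genes. Of all called genes 43.8% were higher under the authors' scaling and 66.3% when libraries were scaled by their totals alone, which moved the all-gene median of the log2 fold change from -0.03 to 0.10. Relative to that median, each of the 10 genes changed by nearly the same amount under both scalings (Tgfb2 by -1.07 under each, Ltbp4 by 1.10 and 1.11). This follows from the scaling itself, which shifts all genes nearly alike, and gives no added support to the calls.

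**Figure D1:**
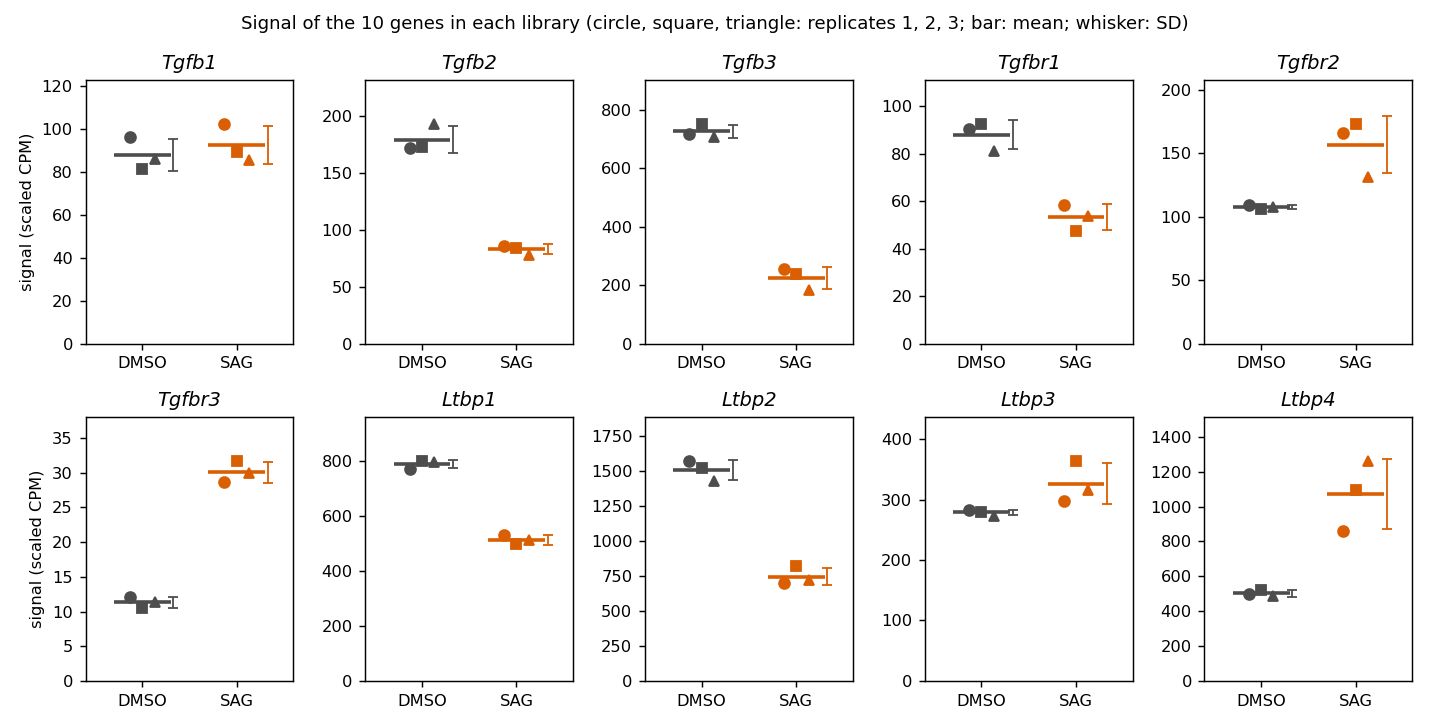
Signal (CPM with the authors' scaling inside, linear axes from 0) of each of the 10 genes in the 3 DMSO and 3 SAG libraries; circles, squares and triangles are replicates 1, 2 and 3, bars are means and whiskers SD. All 3 SAG points lie under all 3 DMSO points for Tgfb2, Tgfb3, Tgfbr1, Ltbp1 and Ltbp2 and above them for Tgfbr2, Tgfbr3, Ltbp3 and Ltbp4, while those of Tgfb1 mix.

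The promoters of these genes differ in build. As examples, picked with the changes known, the sequences of Tgfb2 and Ltbp2, which fell, of Ltbp4, which rose, and of Tgfb1, which was not called, are shown. Each line gives the 250 bases before a RefSeq transcript start (GRCm38.p6), read 5′ to 3′ on the strand of the gene. Capitals mark the letters CAGAC (bound by Smad proteins), GGGCGG (the GC box bound by Sp1) and TATAAA (the TATA box), each searched on both strands; none of the motifs searched contains another. Ltbp4 has 3 listed starts, and the outermost is shown.
Tgfb2 (chr1:186705990-186706239, minus strand): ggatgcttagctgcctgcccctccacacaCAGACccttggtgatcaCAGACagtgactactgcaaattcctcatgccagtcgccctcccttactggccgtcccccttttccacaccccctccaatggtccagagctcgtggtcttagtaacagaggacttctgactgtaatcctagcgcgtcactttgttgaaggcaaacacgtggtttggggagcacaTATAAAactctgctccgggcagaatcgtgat
Ltbp2 (chr12:84876492-84876741, minus strand): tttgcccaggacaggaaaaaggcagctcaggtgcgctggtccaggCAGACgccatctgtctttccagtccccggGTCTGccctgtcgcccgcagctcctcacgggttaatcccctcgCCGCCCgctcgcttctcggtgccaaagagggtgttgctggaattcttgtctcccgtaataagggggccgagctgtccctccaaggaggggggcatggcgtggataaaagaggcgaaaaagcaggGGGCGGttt
Tgfb1 (chr7:25686752-25687001, plus strand): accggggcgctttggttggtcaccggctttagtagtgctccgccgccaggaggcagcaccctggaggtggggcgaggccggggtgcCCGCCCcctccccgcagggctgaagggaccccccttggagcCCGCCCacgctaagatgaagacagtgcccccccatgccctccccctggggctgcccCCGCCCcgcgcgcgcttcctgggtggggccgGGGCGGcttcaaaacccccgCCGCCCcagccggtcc
Ltbp4 (chr7:27337613-27337862, minus strand): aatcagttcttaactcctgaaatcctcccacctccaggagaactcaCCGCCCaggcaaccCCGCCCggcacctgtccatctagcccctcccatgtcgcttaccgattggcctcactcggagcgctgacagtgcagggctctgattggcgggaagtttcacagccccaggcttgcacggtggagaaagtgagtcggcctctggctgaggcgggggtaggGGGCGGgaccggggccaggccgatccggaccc

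The Tgfb2 window holds a TATA box that begins 31 bases before the start, 2 copies of CAGAC and no GC box, and 53.6% of its bases are G or C. The Tgfb1 window has no TATA box and 5 GC boxes and is 75.2% G or C, against a median of 52.4% over all 32851 mouse windows of the same length. The Ltbp4 window shown has 3 GC boxes, and the Ltbp2 window has 2 GC boxes and 2 copies of CAGAC, 1 of them on the opposite strand as GTCTG. Over all windows, CAGAC is found in 42.2%, the GC box in 32.7% and TATAAA in 12.4%. Of the 12 windows of the 8 genes in the table, 7 hold CAGAC (6 genes) and 6 hold the GC box (4 genes). TATAAA occurs in the Tgfb2 window alone. Neither of the first 2 motifs goes with 1 direction of change: CAGAC is found in Tgfb2, Tgfbr1, Ltbp1 and Ltbp2, which fell, but also in Tgfbr2, which rose, and in Ltbp3, which was not called. The GC box is found in Tgfbr1 and Ltbp2, which fell, in Ltbp4, which rose, and in Tgfb1. The GLI motif GACCACCCA, found in 0.225% of all windows, the AP-1 motif TGANTCA (6.75%) and the TEAD motif GGAATG (12.6%) have no match in any of the 12, and the cAMP response element TGACGTCA (1.55%) has 1, in Ltbp1. A match is only a run of letters, and the absence of one says nothing about the factor beyond these windows. Tgfb3 and Tgfbr3 have no entry in the table.

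Among the ligands, Tgfb3 was the one that changed most. Tgfb3 signal was 719, 753 and 707 in DMSO replicates 1 to 3 and 256, 238 and 184 in SAG replicates 1 to 3. Every SAG library lay far under every DMSO library, and the lowest was SAG replicate 3. The mean fell 3.22-fold, from 726 ± 23.7 to 226 ± 37.7 (log2 fold change -1.70 with SE 0.13, adjusted p = 3.7e-05 by limma). Its change ranked at the 98.8th percentile of all tested genes by size.

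Tgfb2, the ligand that depends most on the co-receptor Tgfbr3 for binding, had signals of 172, 173 and 193 in DMSO replicates 1 to 3 and of 86.2, 84.5 and 78.0 in SAG replicates 1 to 3. The groups were well apart and each was tight. The mean fell 2.17-fold, from 180 ± 12.1 to 82.9 ± 4.37 (log2 fold change -1.10 with SE 0.10, adjusted p = 9.1e-05 by limma).

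Tgfb1, the ligand most often linked to immune regulation and fibrosis, had signals of 96.2, 81.4 and 86.1 in DMSO replicates 1 to 3 and of 102, 89.5 and 85.5 in SAG replicates 1 to 3. The highest library of each group was replicate 1, and the groups overlapped. The means were 87.9 ± 7.54 and 92.5 ± 8.86, a difference within the spread between replicates (log2 fold change 0.07 with SE 0.11, adjusted p = 0.665 by limma).

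Levels of different genes can be compared only per length, so signal was divided by the exon length of each gene in GENCODE M21. That length joins the exons of all listed transcripts, so it can exceed the length of the transcripts the cells make. The order of genes on this scale, here and below, depends on that choice. On that scale the order in DMSO was Tgfb3 (215 ± 7.0 per kb), Tgfb2 (31.0 ± 2.09) and Tgfb1 (17.4 ± 1.5), with no overlap between neighbours in that order. With SAG it was Tgfb3 (66.7 ± 11.1 per kb), Tgfb1 (18.3 ± 1.76) and Tgfb2 (14.3 ± 0.754), so that Tgfb1 stood above Tgfb2 in every SAG library and under it in every DMSO library. The ratio of Tgfb2 to Tgfb1 per length, which does not depend on how libraries are scaled, was 1.56 to 1.96 in DMSO and 0.733 to 0.822 with SAG. Tgfb3 made up 81.6% ± 1.19 of the summed ligand level per length in DMSO and 66.9% ± 2.48 with SAG. Tgfb1 went from 6.63% ± 0.644 to 18.6% ± 1.38 of that sum and Tgfb2 from 11.8% ± 0.949 to 14.5% ± 1.26. The sum itself was 2.65-fold lower with SAG, at 263 ± 4.75 per kb in DMSO and 99.4 ± 13.4 with SAG. These shares and sums are descriptions with no test.

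**Figure D2:**
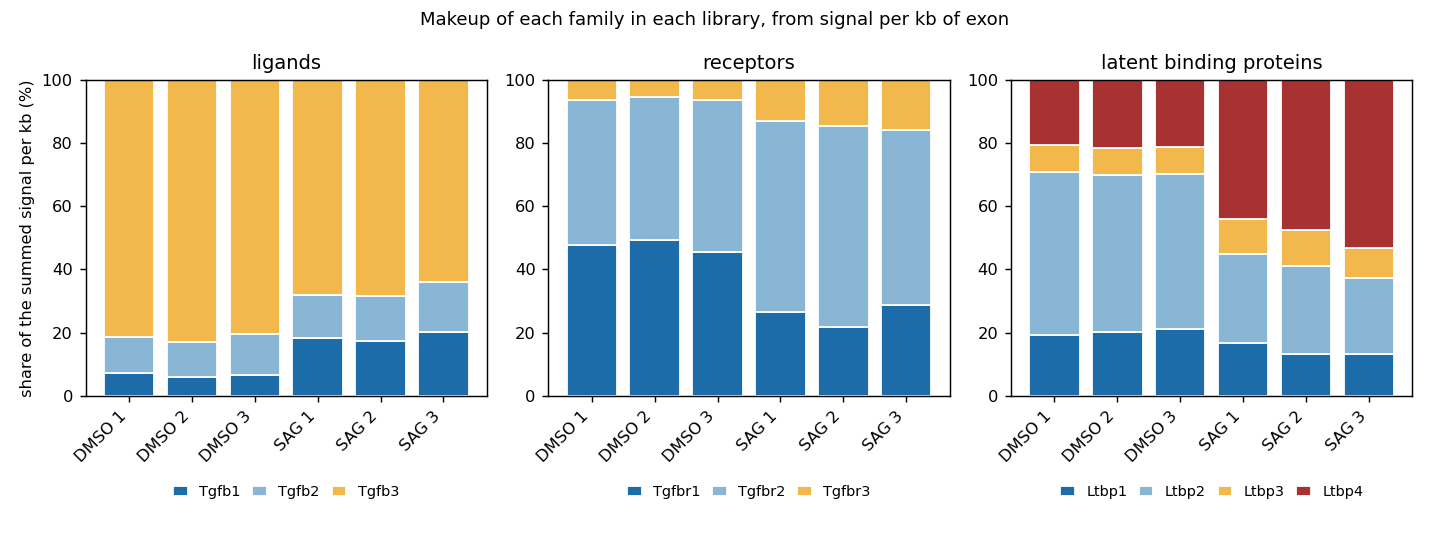
Share (%) of each gene in the summed signal per kb of its family, 1 stacked bar per library, for the 3 ligands, the 3 receptors and the 4 latent binding proteins. In every SAG library Tgfb3, Tgfbr1 and Ltbp2 take a smaller share than in every DMSO library, and Tgfb1, Tgfbr3 and Ltbp4 a larger one; Ltbp4 goes from 21.2% to 48.4% of the binding protein sum.

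The receptors moved in opposite directions. Tgfbr1, the type I kinase that passes the signal to Smad2 and Smad3, had signals of 90.2, 92.6 and 81.3 in DMSO replicates 1 to 3 and of 58.3, 47.5 and 53.9 in SAG replicates 1 to 3. All SAG libraries were lower than all DMSO libraries. The mean fell 1.65-fold, from 88.0 ± 5.98 to 53.2 ± 5.47 (log2 fold change -0.72 with SE 0.11, adjusted p = 0.00191 by limma).

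Tgfbr2, the type II kinase that binds the ligand first, had signals of 109, 106 and 108 in DMSO replicates 1 to 3 and of 166, 173 and 131 in SAG replicates 1 to 3. The DMSO libraries were nearly equal and SAG replicate 3 was the lowest of the SAG libraries, yet above all of DMSO. The mean rose 1.46-fold, from 108 ± 1.44 to 157 ± 22.6 (log2 fold change 0.53 with SE 0.12, adjusted p = 0.00988 by limma). This is the least firm of the 8 calls: the adjusted p was 0.0505 without DMSO replicate 2, and from 7.3e-08 (without SAG replicate 3) to 0.0496 when any other library was left out.

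Tgfbr3, or betaglycan, has no kinase of its own; it presents TGF-beta to Tgfbr2 and also binds inhibin, and mice that lack it have disturbed cords and Leydig cells in the fetal testis. Its signals were 12.1, 10.4 and 11.4 in DMSO replicates 1 to 3 and 28.7, 31.7 and 29.9 in SAG replicates 1 to 3. The SAG libraries were close to each other and all far above DMSO. The mean rose 2.66-fold, from 11.3 ± 0.826 to 30.1 ± 1.51 (log2 fold change 1.34 with SE 0.13, adjusted p = 1.2e-04 by limma). Tgfbr3 was the least abundant of the 10 genes, with 202 to 299 reads in each library.

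Per length, Tgfbr1 (13.5 ± 0.916 per kb) and Tgfbr2 (13.1 ± 0.175) were at the same level within the spread of the DMSO libraries, and Tgfbr3 stood lower at 1.73 ± 0.126. With SAG, Tgfbr2 led at 19.1 ± 2.76 per kb, followed by Tgfbr1 at 8.15 ± 0.837 and Tgfbr3 at 4.60 ± 0.231, and there no neighbours in the order overlapped, whereas Tgfbr1 and Tgfbr2 did in DMSO. The ratio of Tgfbr2 to Tgfbr1 was 0.914 to 1.06 in DMSO and 1.94 to 2.91 with SAG, and that of Tgfbr3 to Tgfbr2 was 0.123 to 0.139 and 0.216 to 0.286. The summed receptor level per length was 28.3 ± 0.887 in DMSO and 31.9 ± 2.66 with SAG, so its makeup differed far more than its total. Tgfbr1 made up 47.5% ± 1.92 of it in DMSO and 25.7% ± 3.49 with SAG, Tgfbr2 46.4% ± 1.55 and 59.8% ± 4.09, and Tgfbr3 6.10% ± 0.473 and 14.5% ± 1.41.

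**Figure D3:**
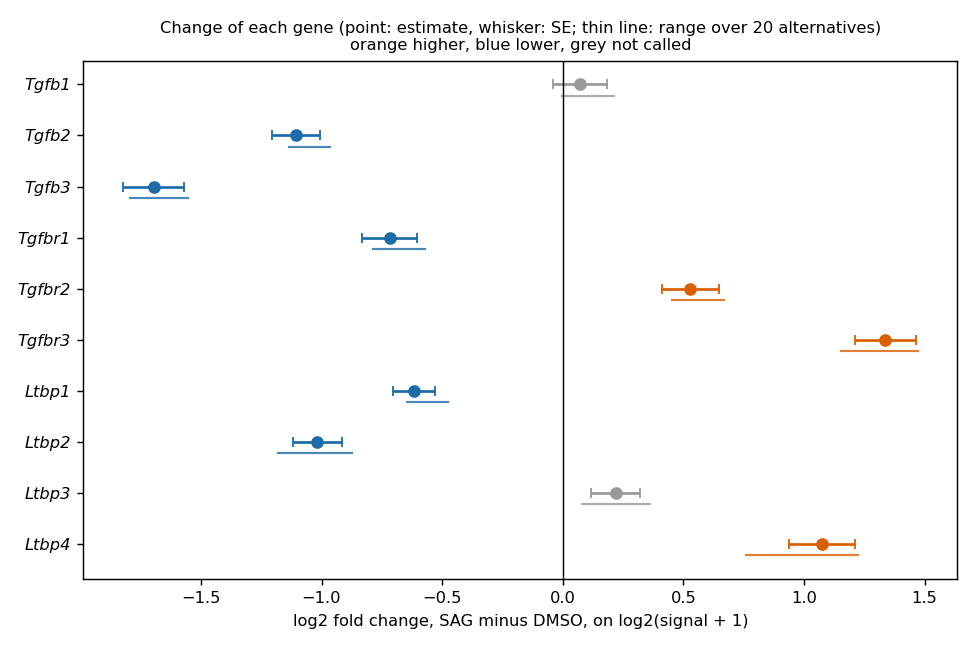
Log2 fold change of each gene, SAG minus DMSO on log2(signal + 1), with its SE as whiskers; the thin line under each point spans 20 alternative analyses. The lines of Tgfb2, Tgfb3, Tgfbr1, Ltbp1 and Ltbp2 stay left of 0, those of Tgfbr2, Tgfbr3, Ltbp3 and Ltbp4 stay right of it, and that of Tgfb1 crosses it, from -0.0033 to 0.21.

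The latent binding proteins also split. Ltbp2, a matrix protein of elastic fibres that, unlike the other members, does not carry latent TGF-beta, had signals of 1571, 1522 and 1430 in DMSO replicates 1 to 3 and of 697, 818 and 723 in SAG replicates 1 to 3. The groups were far apart. The mean fell 2.02-fold, from 1508 ± 71.8 to 746 ± 63.7 (log2 fold change -1.02 with SE 0.10, adjusted p = 1.5e-04 by limma). The antisense gene D030025P21Rik shares 764 exon bases with Ltbp2, which is 9.34% of its exon length, and its signal also fell, from 129 ± 9.81 to 64.3 ± 17.2 (log2 fold change -1.02). The kit keeps strand, but no source used here gives the strand setting of the counting, so reads from this overlap cannot be told apart.

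Ltbp1, the first described carrier of latent TGF-beta, had signals of 772, 801 and 796 in DMSO replicates 1 to 3 and of 534, 498 and 512 in SAG replicates 1 to 3. Both groups were tight and did not overlap. The mean fell 1.53-fold, from 790 ± 15.6 to 515 ± 18.0 (log2 fold change -0.62 with SE 0.09, adjusted p = 0.00104 by limma).

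Ltbp4, which carries latent TGF-beta 1 and is needed for elastic fibre assembly, had signals of 499, 524 and 485 in DMSO replicates 1 to 3 and of 858, 1097 and 1261 in SAG replicates 1 to 3. All SAG libraries were higher, and they were also more spread, with SAG replicate 3 the highest. The mean rose 2.13-fold, from 503 ± 19.3 to 1072 ± 203 (log2 fold change 1.07 with SE 0.14, adjusted p = 6.1e-04 by limma). Without SAG replicate 3 the log2 fold change was 0.95, and with length and GC trends removed it was 0.76, still called in each case.

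Ltbp3, another carrier of latent TGF-beta, had signals of 283, 280 and 274 in DMSO replicates 1 to 3 and of 298, 364 and 316 in SAG replicates 1 to 3. Each SAG library was above each DMSO library, by little in the case of SAG replicate 1. The means were 279 ± 4.68 and 326 ± 34.0 (log2 fold change 0.22, SE 0.10), and the difference was not called with all libraries (limma, Benjamini-Hochberg adjusted p = 0.129). It passed without SAG replicate 3 (limma, Benjamini-Hochberg adjusted p = 0.0101) and with scaling by library total (0.0303), and the adjusted p over all 20 alternatives ran from 0.0101 to 0.488.

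In DMSO the order per length was Ltbp2 (184 ± 8.78 per kb), Ltbp4 (77.8 ± 2.99), Ltbp1 (73.9 ± 1.46) and Ltbp3 (30.7 ± 0.516), where Ltbp4 and Ltbp1 were close but did not overlap. With SAG the order was Ltbp4 (166 ± 31.3 per kb), Ltbp2 (91.1 ± 7.79), Ltbp1 (48.1 ± 1.68) and Ltbp3 (36.0 ± 3.74), with no overlap between neighbours. The ratio of Ltbp4 to Ltbp2 was 0.402 to 0.436 in DMSO and 1.56 to 2.21 with SAG. Ltbp2 made up 50.2% ± 1.16 of the summed level per length in DMSO and 26.8% ± 2.35 with SAG, Ltbp4 21.2% ± 0.500 and 48.4% ± 4.60, Ltbp1 20.2% ± 0.816 and 14.2% ± 2.03, and Ltbp3 8.39% ± 0.115 and 10.6% ± 0.922. The sum was 367 ± 10.6 per kb in DMSO and 341 ± 35.3 with SAG, a difference under the SD of the SAG libraries. This sum includes Ltbp2, which does not carry latent TGF-beta, so it does not give the summed level of the carriers.

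On GRCm38 (GENCODE M21), Tgfb3 lies on chromosome 12 at 86056745 to 86079041 and Ltbp2 on the same chromosome at 84783212 to 84876532, both on the minus strand and 1.18 Mb apart; both fell. Tgfb1 (25687002 to 25705077, plus strand) and Ltbp4 (27305136 to 27337692, minus strand) lie 1.60 Mb apart on chromosome 7, and Ltbp4 alone of that pair was called. Tgfb2 lies on chromosome 1 at 186622792 to 186705989 (minus strand), Tgfbr1 on chromosome 4 at 47353222 to 47414931 (plus strand), Tgfbr2 on chromosome 9 at 116084293 to 116175360 (minus strand) and Tgfbr3 on chromosome 5 at 107106570 to 107289629 (minus strand). Ltbp1 lies on chromosome 17 at 75005568 to 75392512 and Ltbp3 on chromosome 19 at 5740904 to 5758532, both on the plus strand. Reads were counted per gene by the authors, so transcript forms, of which GENCODE lists 10 for Ltbp1 and for Ltbp4 and 12 for Ltbp3, were not resolved.

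Of the 87 other genes of the pathway, taken from 5 lists, 78 were tested, and 17 were higher and 29 lower. Their median log2 fold change was -0.13, against -0.03 over all tested genes, and 59.0% of them were called, against 29.6% of all tested genes. With scaling by library total, where the median of all tested genes is 0.10, the list medians were 0.02 for genes that hold or free latent TGF-beta, 0.14 for co-receptors, -0.0022 for Smads, -0.39 for response genes and 0.03 for the activin branch.

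Genes that hold or free latent TGF-beta changed in both directions, with 6 of 17 tested higher and 5 lower (median log2 fold change -0.13, and -0.06 without SAG replicate 3). With length and GC trends removed 8 were lower. Itgav, the integrin chain that recognises the latent propeptide, was 2.83-fold lower (367 ± 11 in DMSO, 129 ± 5.51 after SAG). Its partner Itgb3 was 2.47-fold higher, at 27.8 ± 2.74 and 68.6 ± 8.46, while Itgb1, a partner of many integrin chains, was 1.45-fold lower. Thbs1, thrombospondin 1, which can activate the latent form, was 2.25-fold lower, at 5557 ± 251 and 2465 ± 258, while its relative Thbs2 was 1.76-fold higher. Fbn1, the fibrillin to which latent complexes are tethered, was 1.58-fold lower, at 3598 ± 117 and 2276 ± 265. Adamts1, a secreted protease, was 2.59-fold higher, and Emilin1, an elastic fibre protein that restrains processing of the TGF-beta precursor, was 1.73-fold higher, at 283 ± 10.4 and 488 ± 48.8. Itgb6, the integrin chain of epithelia that frees latent TGF-beta, had 0 reads in all 6 libraries.

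Among co-receptors and binding proteins 3 of 11 tested genes were higher and 3 lower (median log2 fold change 0.00184, and 0.02 without SAG replicate 3). The small proteoglycan genes Dcn and Fmod, whose products bind TGF-beta, were 4.42-fold and 3.08-fold higher. Htra3, a secreted protease, was 4.79-fold higher, at 16.1 ± 1.33 in DMSO and 77.2 ± 6.53 with SAG. Fstl3, an activin-binding follistatin relative, was 1.89-fold lower, and the co-receptor genes Nrp1 and Cd109 were 1.40-fold and 1.43-fold lower. Without DMSO replicate 3 the lower count was 1, the calls of Nrp1 and Cd109 being lost (limma, Benjamini-Hochberg adjusted p = 0.0668 and 0.0703), and that of Cd109 was also lost without DMSO replicate 2 (0.0648) and with scaling by library total (0.0558).

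Of the 18 tested Smad genes and regulators 4 were higher and 6 lower. Their median log2 fold change was -0.14, and 0.03 without SAG replicate 3, so its sign changed when that library was left out. The median was not taken with any other library left out. The receptor-activated Smads differed in direction: Smad3 was 1.45-fold higher, at 40.4 ± 0.670 in DMSO and 58.6 ± 3.14 with SAG, and Smad2, named after its value was seen, was 1.38-fold lower, at 68.6 ± 3.17 and 49.6 ± 1.96. Smad6, an inhibitory Smad, was 1.95-fold higher, Bambi, a decoy receptor, 1.66-fold higher and the corepressor gene Tgif2 1.60-fold higher. The ubiquitin enzyme genes Usp15, Smurf1 and Wwp1, whose products act on receptors and Smads, were 2.23-fold, 1.64-fold and 1.52-fold lower. Pmepa1, a feedback inhibitor that TGF-beta induces, was 1.67-fold lower, at 488 ± 15.1 and 292 ± 49.9.

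Among genes known to respond to TGF-beta in other cells, 12 of 24 tested fell and 2 rose, with a median log2 fold change of -0.53 against -0.03 over all tested genes. Of all tested genes 16.6% were called lower and 12.9% higher. Timp3, an inhibitor of matrix proteases, was 2.21-fold lower, at a signal of 1205 ± 39.2 in DMSO and of 546 ± 74.1 after SAG, the oxidase gene Nox4 2.42-fold lower and the matricellular gene Ctgf 1.70-fold lower, at 3564 ± 131 and 2098 ± 147. The 2 called higher were Tgfbi, a matrix protein gene, at 1.03 ± 0.425 and 31.9 ± 3.07, and the transcription factor gene Snai2, 2.04-fold higher. The other 10 were not called, the collagen genes Col1a1 and Col1a2, Postn and Fn1 among them. Smad7, the inhibitory Smad that TGF-beta induces, was at 97.9 ± 9.13 and 108 ± 15.1 and was not called (limma, Benjamini-Hochberg adjusted p = 0.467). Without SAG replicate 3 the list had 15 lower and 5 higher and a median of -0.34. Leaving out that library also raised the calls over all genes, to 3373 lower and 2463 higher of 12512 tested. The list shares Acta2 and Tagln with the smooth muscle markers given below.

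Of 12 tested genes of the activin, inhibin and growth and differentiation factor branch 2 were higher and 5 lower (median log2 fold change -0.10, and -0.23 without SAG replicate 3). Inhba, the activin A subunit, was 3.28-fold lower (368 ± 15.4 in DMSO, 112 ± 1.94 after SAG). The activin-binding gene Fst was at 6.21 ± 2.28 and 1.27 ± 0.995, the type I receptor gene Acvr1 1.55-fold lower and Gdf11 1.77-fold lower. Inha, the inhibin alpha subunit, was 1.80-fold higher, and Amhr2, the receptor of anti-Müllerian hormone, was at 0.840 ± 0.210 and 2.51 ± 0.705. The call of Amhr2 was lost without DMSO replicate 1 or 2 (limma, Benjamini-Hochberg adjusted p = 0.0811 and 0.0686). Neither Amhr2 nor Fst was tested with a filter at a mean of 5, and Fst had 13, 2 and 17 reads in SAG replicates 1 to 3. For each other pathway gene that the naming rule gives, which leaves out Smad2 and, as said, Nrp1 and Cd109, the direction and the call stood without any 1 library.

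**Figure D4:**
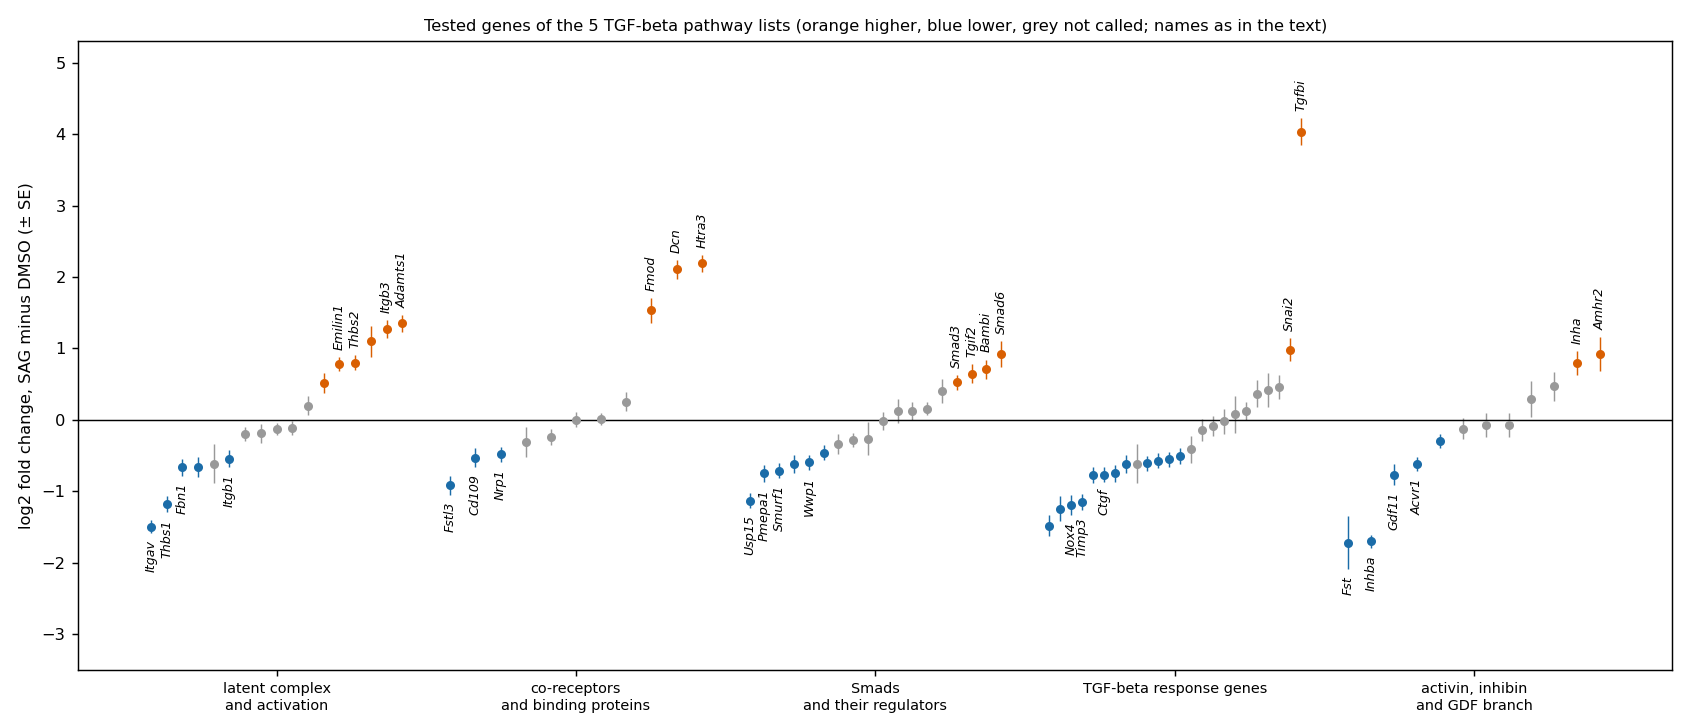
Log2 fold change, SAG minus DMSO on log2(signal + 1), with SE, of each tested gene of the 5 pathway lists, ordered by size within its list. Orange points were called higher, blue lower and grey not called; in the list of TGF-beta response genes 12 blue points stand against 2 orange ones.

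Markers of some cell types, but not of all, also differed between the groups. The counts of called markers stand against 12.9% called higher and 16.6% called lower over all tested genes. Summed signal over 11 smooth muscle markers (peritubular myoid and vascular) was 21477 to 22487 in the DMSO libraries and 13579 to 14968 in the SAG libraries, and 9 of 10 tested markers were called lower and 1 higher. The sum over 11 interstitial progenitor markers was 707 to 730 in DMSO and 1275 to 1483 with SAG, with 6 higher and 0 lower. The sum over 8 fetal Leydig markers was 98.4 to 100.5 in DMSO and 138, 138 and 219 in SAG replicates 1 to 3, with 3 of 5 tested higher and 0 lower, and Cyp17a1 and Lhcgr were under 1 in every library. Surface epithelial markers summed to 21.3 to 35.0 in DMSO and 13.3 to 16.2 with SAG, with 3 of 6 tested lower and 0 higher. Sums over Sertoli markers (41.6 to 48.0 in DMSO and 38.7 to 42.3 with SAG) and endothelial markers (34.7 to 41.8 and 38.9 to 53.7) overlapped between the groups, and no marker of either was called. In bulk samples, fewer cells of a type and less RNA per cell cannot be told apart, and the part of these markers in the changes of the TGF-beta genes was not tested.

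The tested genes whose log2(signal + 1) ran most like that of a ligand over the 6 libraries were, by Pearson's r, Prepl (0.999), Dnah8 (0.999) and Gabrb1 (0.998) for Tgfb2 and Ica1 (0.999), Pgd (0.999) and Wwp1 (0.999) for Tgfb3. The 6 libraries form 2 groups, so r is close to 1 for any gene that differs between the groups with little spread within them: 245 genes reached 0.98 with Tgfb2 and 326 with Tgfb3. For Tgfb1, whose groups overlap, the nearest genes were Gcfc2 (0.979), Cth (0.970) and Trip10 (0.965), and 0 genes reached 0.98.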

How the data were processed

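Per the labels' protocols, total RNA (RNeasy Micro) went into strand-keeping libraries (NEBNext Ultra II Directional). The submitters' processing notes name Trim Galore 0.6.4, featureCounts 2.0.0, STAR, edgeR (as 2.2.1) and the GRCm38 (mm10) build. No source used here gives the annotation or strand setting. Deposited by the authors was 1 table of normalized signal, named as CPM; its columns sum to 932712 to 1055620, so it was treated as scaled signal. Columns were matched to samples by treatment and replicate number. In each column 100% of values were whole multiples of 1 step (tolerance 0.01), which gave back whole reads. The 92 spike-in rows (at most 0.0157% of reads) were left out.

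The test was limma 3.58.1 on log2(signal + 1) (eBayes with trend, R 4.3.3) on the 12550 genes whose mean signal reached 1, group being the only term, and Benjamini-Hochberg adjustment ran over all of them. Log2 fold changes are on that scale, which understates low genes' changes, and folds divide mean signals. Exon lengths came from GENCODE M21 (23376 of 24413 rows matched by symbol) and promoters from RefSeq (GRCm38.p6; 8 of 10 genes matched). Named genes were the 10 genes, Gli1 and Ptch1, up to 4 called genes per direction of each pathway list with the smallest p and groups that do not overlap, and the 3 genes most correlated with each ligand. A gene given by that rule is not reported here. D030025P21Rik is named for its overlap with Ltbp2, and others are named so, or given as not called, at 0 or as markers. The genes, lists and rules were chosen with earlier results of these data known. The limma fit was also run on simulated counts with known changes in few genes, evenly in both directions. These data differ from that setting, so its outcome is not given as support for any call. Whether replicates were separate cultures or animals is not stated, so the p-values cover the spread among these samples alone, which may be technical. Alternatives were other pseudocounts, filters, scalings and thresholds, trendless and robust limma, thinned reads, a replicate block, each library left out, count tests on recovered reads (DESeq2 1.42.0; edgeR 4.0.16, quasi-likelihood), and, chosen after seeing the data, length and GC trends removed.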

Additional observations from a re-analysis of the deposited data

Results flagged for a closer look

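Rows for synthetic spike-in RNAs, which no comparison here uses, held 111, 54 and 1205 reads in SAG replicates 1, 2 and 3 and 0 reads in each DMSO library. The labels do not mention spike-ins. Both the spike-in reads and the lower read totals fall on the SAG libraries. A difference in library handling between the groups therefore cannot be told apart from the treatment in any comparison here.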

How the results depend on the processing

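Of the 10 genes, 8 kept their call in all 20 alternatives; the exceptions were Tgfbr2, lost without DMSO replicate 2 (limma, Benjamini-Hochberg adjusted p = 0.0505), and Ltbp3, gained without SAG replicate 3 and with scaling by library total. The log2 fold change of Tgfb1 ran from -0.0033 (without SAG replicate 1, the only change of sign among the 10 genes) to 0.14 when a library was left out, and up to 0.21 over all 20 alternatives. With each library left out in turn 2 to 4 of the 10 genes were higher and 5 lower, and 15 to 22 pathway genes were higher and 25 to 34 lower. Over all genes, leaving out a library gave 901 to 2463 higher and 1086 to 3373 lower (930 and 1093, 969 and 1136, and 901 and 1086 on leaving out DMSO replicates 1, 2 and 3 in that order, and 2463 and 3373 on leaving out SAG replicate 3), scaling by library total 2477 and 1259, and a threshold of 0.01 gave 794 and 1043. Without division by length, shares in DMSO and SAG were 8.85% and 23.1% for Tgfb1, 18.1% and 20.8% for Tgfb2, 73.1% and 56.1% for Tgfb3, 52.0% and 65.1% for Tgfbr2, 5.47% and 12.6% for Tgfbr3, 25.7% and 19.5% for Ltbp1, 9.06% and 12.3% for Ltbp3, 16.3% and 40.1% for Ltbp4, and in DMSO 42.5% for Tgfbr1 and 49.0% for Ltbp2. Labels of both groups carry replicate numbers 1 to 3, but same-numbered libraries did not deviate together (correlations of -0.0231, 0.0332 and -1.7e-04), so the numbers are not taken as pairs; with a replicate block 3 of the 10 genes were higher and 5 lower, 18 and 29 pathway genes, and 1549 and 1976 of all genes. Depth limits Tgfbr3 most, at 202 to 299 reads per library; with reads thinned to 7693274 per library its log2 fold change was 1.39.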
